A study of Mus musculus with 24 samples.

Results

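Complex I, NADH:ubiquinone oxidoreductase, is the entry point of the mitochondrial respiratory chain. It takes electrons from NADH through a peripheral arm that reaches into the matrix, passes them along iron-sulfur clusters to ubiquinone, and pumps protons across the inner membrane through its membrane arm. Most of its subunits are encoded in the nucleus and imported, the hydrophobic core of the membrane arm is encoded by mitochondrial DNA, and dedicated assembly factors join the modules without staying in the finished enzyme. Hepatocytes are rich in mitochondria and use the NADH that fatty acid oxidation supplies.

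The nuclear complex I genes were taken as every row of the deposited tables whose symbol is Nduf followed by a, b, c, s, v, ab or af and then digits only. This gave 45 genes of 55421, namely 37 subunit genes and 8 assembly factor genes (Ndufaf1 to Ndufaf8), and all 45 were among the 13847 genes that passed the filter on low counts. The rule also takes in Ndufa4, a gene whose protein is now placed with complex IV. It leaves out 6 other genes with the Nduf prefix, Ndufa11b, Ndufa4l2, Ndufab1-ps, Ndufb1-ps, Ndufb4c and Ndufs6b.

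RNA was sequenced from hepatocytes of aged male C57BL/6J mice, isolated by perfusion with collagenase and a Percoll gradient. From 4 months of age the mice received vehicle or rapamycin, the inhibitor of the kinase mTOR, encapsulated in eudragit (eRapa) at 42 ppm of the diet. At 18 months 8 vehicle mice were kept on the normal diet, forming the group ND+veh. The others ate a diet with 60% of calories from fat for 9 weeks, 7 of them on vehicle (HFD+veh) and 9 of them on eRapa (HFD+eRapa). No group received eRapa on normal diet, so eRapa was compared only on the high-fat diet, and HFD+eRapa differs from ND+veh in diet and drug together. Each library is 1 animal.

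Libraries held 17.7 to 25.9 M counts (M, 1000000). Levels of genes are given as counts per M after TMM scaling (CPM), which does not correct for gene length. Sums of cell type markers, also in CPM, are per M of all counts of the library, without TMM scaling. The TMM factors ran from 0.848 to 1.30 over the 24 libraries. All 10 hepatocyte markers were detected in every library, and their summed level ran from 80385 to 156364 CPM in ND+veh, from 119062 to 153051 in HFD+veh and from 60893 to 131741 in HFD+eRapa. Alb, with a mean of 86689 CPM over the 24 libraries, weighs most in this sum. Of the 10, edgeR called 1 lower with the diet, 1 higher with eRapa on the diet and 0 in HFD+eRapa against ND+veh. Markers of other liver cells moved with the groups. The 12 macrophage markers summed to 51.6 to 1498 CPM in ND+veh, 173 to 6313 in HFD+veh and 19.3 to 1032 in HFD+eRapa, with 1 of the 12 (Itgam) at 0 in some libraries. With the diet edgeR called 4 of these 12 higher, and with eRapa on the diet it called 10 lower. The 8 stellate cell markers summed to 31.3 to 244 CPM, 32.7 to 582 CPM and 21.2 to 92.4 CPM in the same order of groups, and the 8 endothelial markers to 77.8 to 411 CPM, 97.0 to 778 CPM and 60.9 to 308 CPM. None of the 8 markers in either list was at 0 in any library. Of the 12 lymphocyte and 6 neutrophil markers only 2 and 3 passed the filter, and 1 and 2 of these were called higher in HFD+veh than ND+veh. Of 5 erythroid markers 4 were called higher in that contrast and 3 in HFD+eRapa against ND+veh. Of 6 cholangiocyte markers 3 passed the filter, all of them called higher with the diet, and the 6 summed to 4.91 to 27.0 CPM in ND+veh, 13.7 to 425 in HFD+veh and 11.8 to 57.3 in HFD+eRapa. All 8 stellate and all 8 endothelial markers were called lower with eRapa on the diet. In bulk RNA, fewer cells of a type and less RNA per cell cannot be told apart.

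Per unit of gene length, subunit transcripts were abundant and assembly factor transcripts were scarce. The level used here is FPKM, fragments per kilobase and per M mapped fragments. Over the 24 libraries the median of the subunit means was 119 FPKM, against 13.5 FPKM for the assembly factors, and every subunit mean lay above every assembly factor mean. Ndufa4 was highest at 610 ± 128 FPKM (SD, n = 24), followed by Ndufa6, an accessory subunit next to the ubiquinone site, at 296 ± 55.1 FPKM. Ndufb4, of the distal membrane arm, was the lowest subunit at 39.8 ± 7.74 FPKM, so the subunit means spanned a ratio of 15.3. That lowest value is uncertain, because the near-identical gene Ndufb4c had a median of 53.3 FPKM but only 5 counts, while Ndufb4 had a median of 37.5 FPKM and 462.5 counts. Among assembly factors the means ran from 4.35 ± 0.770 FPKM for Ndufaf5 to 25.2 ± 6.17 FPKM for Ndufaf8.

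**Figure D1:**
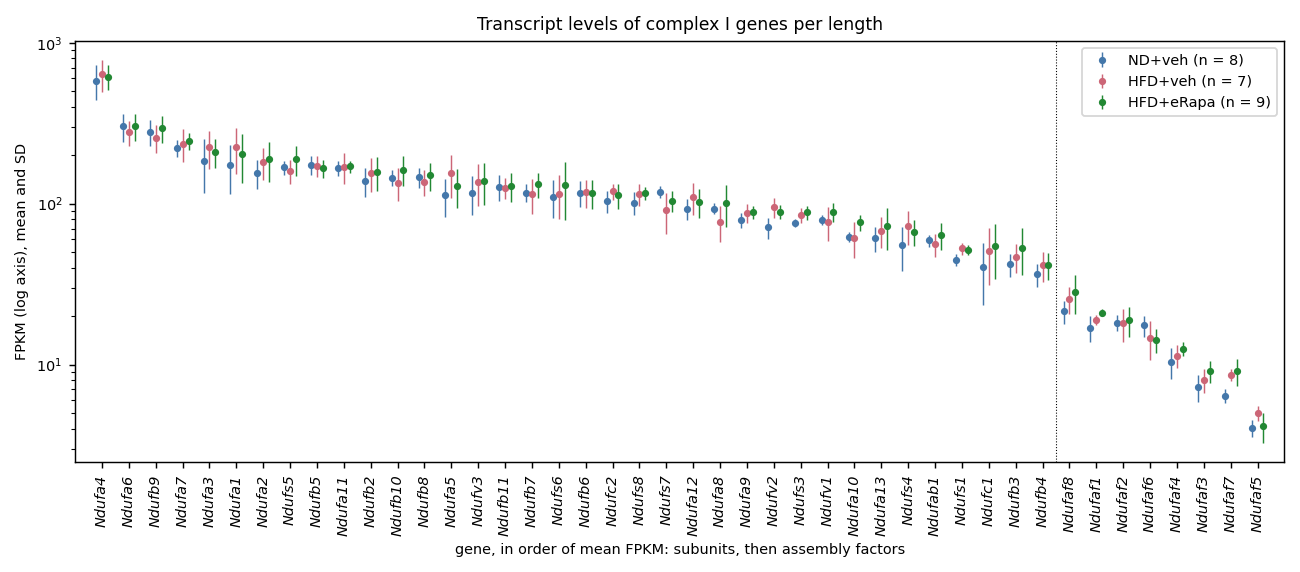
Mean FPKM (log axis) with SD for 44 of the genes in ND+veh (n = 8), HFD+veh (n = 7) and HFD+eRapa (n = 9), ordered by the mean over 24 libraries within subunits (left of the dotted line) and assembly factors (right). Subunit means run from 39.8 to 610 FPKM and assembly factor means from 4.35 to 25.2 FPKM, and the 3 groups lie close together for nearly all genes.

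Core subunits of the matrix arm carry the redox chain, and their levels show the size of the group differences. Ndufv1, which binds FMN and oxidises NADH, averaged 79.5 ± 5.55 FPKM (SD) over the 8 ND+veh, 76.6 ± 18.3 over the 7 HFD+veh and 89.0 ± 12.1 over the 9 HFD+eRapa animals. Its partner Ndufv2, an iron-sulfur protein, had 71.1 ± 10.4, 94.7 ± 13.8 and 88.8 ± 8.77 FPKM in that order of groups. Ndufs1, which carries further iron-sulfur clusters of the same NADH-oxidising (N) module, had 44.9 ± 3.83, 52.6 ± 4.58 and 51.8 ± 3.84 FPKM. These values place Ndufv2 and Ndufs1 lowest in ND+veh, whereas the HFD+veh and HFD+eRapa means of both genes lay within 1 SD of each other.

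In the ubiquinone-binding (Q) module, Ndufs3 had 75.9 ± 4.29 FPKM in ND+veh, 84.9 ± 9.42 in HFD+veh and 88.2 ± 8.55 in HFD+eRapa, and Ndufs8, an iron-sulfur subunit, had 102 ± 16.3, 115 ± 17.8 and 116 ± 10.8 FPKM. Ndufs7, which carries the last cluster before ubiquinone, had 119 ± 9.60, 90.8 ± 25.6 and 104 ± 15.8 FPKM, and was the only one of the core subunits described here with its highest mean in ND+veh.

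Complex I genes rose and fell together from animal to animal within each group. After group means were removed from log2 CPM, the median correlation over the 666 pairs of subunits was 0.78 (24 libraries), and 85.9% of pairs exceeded 0.5. The same median was 0.77 for 38 nuclear genes of complexes II to V, 0.52 for the 8 assembly factors, 0.48 for 77 mitochondrial ribosomal protein genes and near 0 (-0.0020) over all pairs of genes tested, of which 11.8% exceeded 0.5. These correlations are descriptions, since all genes share the same libraries, depth and scaling. ND+veh replicate 4 had the lowest value of its group in 35 of 37 subunits, HFD+eRapa replicate 9 in 33 and HFD+veh replicate 2 in 21. HFD+veh replicate 7 was the highest of its group in 34. The mean log2 CPM of the subunits ran from 5.32 to 6.23 in ND+veh, from 5.62 to 6.44 in HFD+veh and from 5.53 to 6.55 in HFD+eRapa, so that groups overlapped over most of their range. For the assembly factors the ranges were 3.08 to 3.57, 3.37 to 3.84 and 3.40 to 4.03.

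**Figure D2:**
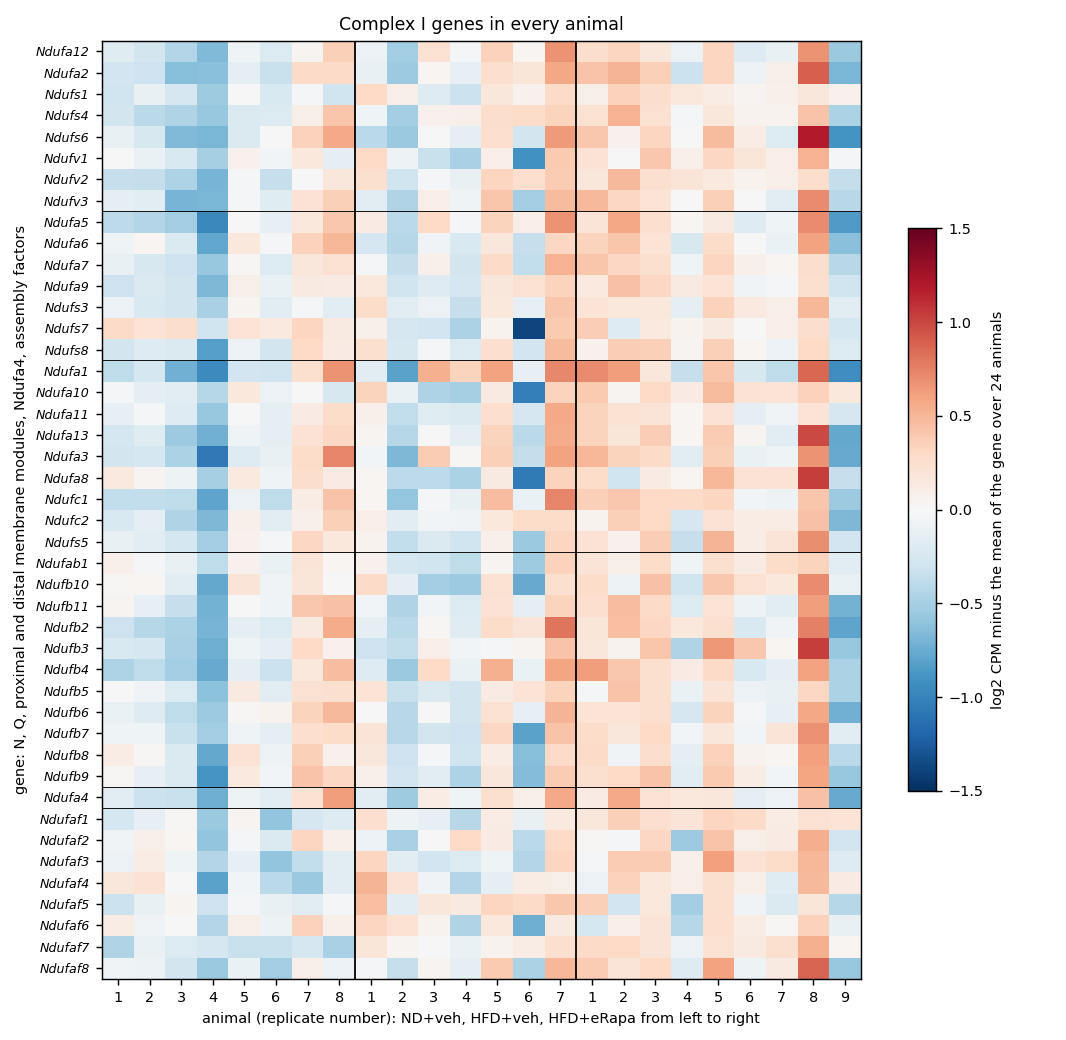
Log2 CPM of each gene in each animal minus the mean of that gene over 24 animals (colour scale), with genes grouped by module and animals by group. Whole columns shift together, with ND+veh replicate 4 and HFD+eRapa replicate 9 low and HFD+veh replicate 7 and HFD+eRapa replicate 8 high across most subunits, and Ndufs7, Ndufa10, Ndufa8 and Ndufv1 are lowest in HFD+veh replicate 6.

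The spread between animals was wider for short transcripts. Among the 12 subunits with the shortest principal transcript (315 to 623 bases) the median SD of log2 CPM within groups was 0.37, and among the 12 longest (1079 to 2590 bases) it was 0.29. Across the 37 subunits the SD had a correlation of -0.57 with log2 length (Spearman's rho -0.52) and of -0.52 with mean log2 CPM, across genes that are not independent. Ndufs1, the longest at 2590 bases, had the smallest subunit SD, 0.17, and Ndufa1, at 419 bases, the largest, 0.56.

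**Figure D3:**
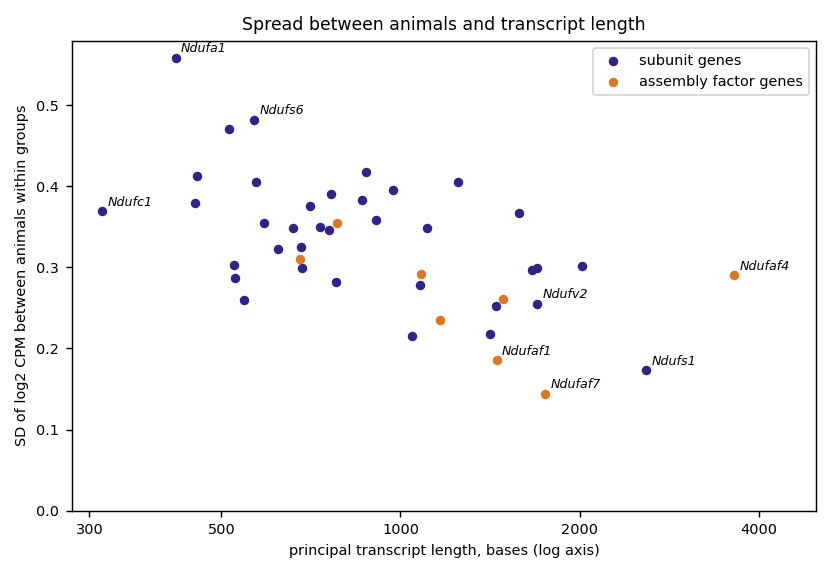
Length of the principal transcript (bases, log axis) against the SD of log2 CPM between animals within groups, for 36 subunit genes and 8 assembly factor genes (points). Ndufs1 (2590 bases) has the smallest subunit SD, 0.17, and Ndufa1 (419 bases) the largest, 0.56.

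The first comparison, HFD+veh against ND+veh, asked what the high-fat diet changed. Most complex I genes did not pass the test. Ndufs1 and Ndufv2, both in the N module, rose, as did the assembly factor Ndufaf7, a methyltransferase that acts during assembly, and no gene of the 45 was called lower. edgeR's quasi-likelihood test with Benjamini-Hochberg adjustment over all genes called 3 of the 45 (6.67%), all higher, against 25.9% of all genes tested called in either direction and 16.0% called higher. The share of complex I genes called was thus below the background in this contrast.

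Ndufs1 (ENSMUSG00000025968.16, GRCm38 chromosome 1, 63143596 to 63176833, minus strand) ran from 93.9 through a median of 115 to 137 CPM in ND+veh and from 108 through 144 to 166 CPM in HFD+veh. The diet group sat mostly above that control median, with overlap between groups. The log2 fold change was 0.28 (SE 0.097, edgeR adjusted p = 0.0383). Exons of Ndufs1 share 498 bases with Ino80dos and Eef1b2, whose reads cannot be told apart from its own where counting ignored strand.

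Ndufv2 (ENSMUSG00000024099.15, chromosome 17, 66078638 to 66101559, minus strand) ran from 50.4 through 64.7 to 92.1 CPM in ND+veh and from 66.5 through 97.1 to 107 CPM in HFD+veh. Here too the upper ND+veh animals reached into the HFD+veh range. Its log2 fold change was 0.36 (SE 0.13, edgeR adjusted p = 0.0430). Ndufaf7 (ENSMUSG00000024082.5, chromosome 17, 78937136 to 78948052, plus strand) ran from 8.11 through 9.26 to 10.6 CPM in ND+veh and from 10.6 through 11.8 to 13.6 CPM in HFD+veh. The lowest HFD+veh animal, at 10.627 CPM, stood just above the highest ND+veh animal, at 10.601 CPM, so the groups did not overlap. Ndufaf7 was the only one of the 45 genes of which this was true, against 2.44% of all genes tested, and its log2 fold change was 0.38 (SE 0.090, edgeR adjusted p = 0.00518).

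The remaining subunits had estimates on both sides of 0. Of 37, 26 were above 0, against 54.1% of all genes tested, with a median log2 fold change of 0.14 beside 0.047 for all genes, and single genes ran from -0.35 to 0.40. The subunit median was 0.031 without HFD+veh replicate 7, 0.032 without ND+veh replicate 4, 0.070 without HFD+veh replicate 5, 0.082 without ND+veh replicate 1 and 0.067 with the immune markers as a covariate. That of the assembly factors was 0.13 without ND+veh replicate 4, against 0.21 with all libraries. Ndufs7 was the lowest, at -0.35 (95% interval -0.69 to -0.0091, edgeR adjusted p = 0.117). It ran from 46.9 through 66.7 to 72.1 CPM in ND+veh and from 22.2 through 48.6 to 75.7 CPM in HFD+veh, where the animals were spread on both sides of the ND+veh values. Ndufs3 had a log2 change of 0.21 (edgeR adjusted p = 0.178). The 8 N-module genes had a median of 0.26 with 2 called, the 8 Q-module genes 0.15, the 9 genes of the proximal membrane arm 0.17 and the 11 of the distal arm -0.0068, with none called in the last 3 modules. All 8 N-module estimates were above 0, against 5 of 11 in the distal arm. Among assembly factors Ndufaf5, which hydroxylates Ndufs7, had 0.37 (edgeR adjusted p = 0.0507) and is named here after its values were seen. For all 37 subunits and all 8 assembly factors the 95% interval lay inside a 2-fold change in either direction, and for 25 and 7 of them inside 1.5-fold.

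The subunit calls in this contrast were marginal. No subunit was called without ND+veh replicate 1, 3, 4 or 6 or HFD+veh replicate 1, 3, 5 or 6, and 1 was called without ND+veh replicate 2 or 8 or HFD+veh replicate 4 or 7, which without HFD+veh replicate 7 was Ndufs7, lower by a log2 change of -0.47 (edgeR adjusted p = 0.0328). With the macrophage, lymphocyte and neutrophil markers as a covariate the log2 fold changes were 0.31 for Ndufs1 (edgeR adjusted p = 0.0843), 0.25 for Ndufv2 (0.298) and 0.43 for Ndufaf7 (0.0114).

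**Figure D4:**
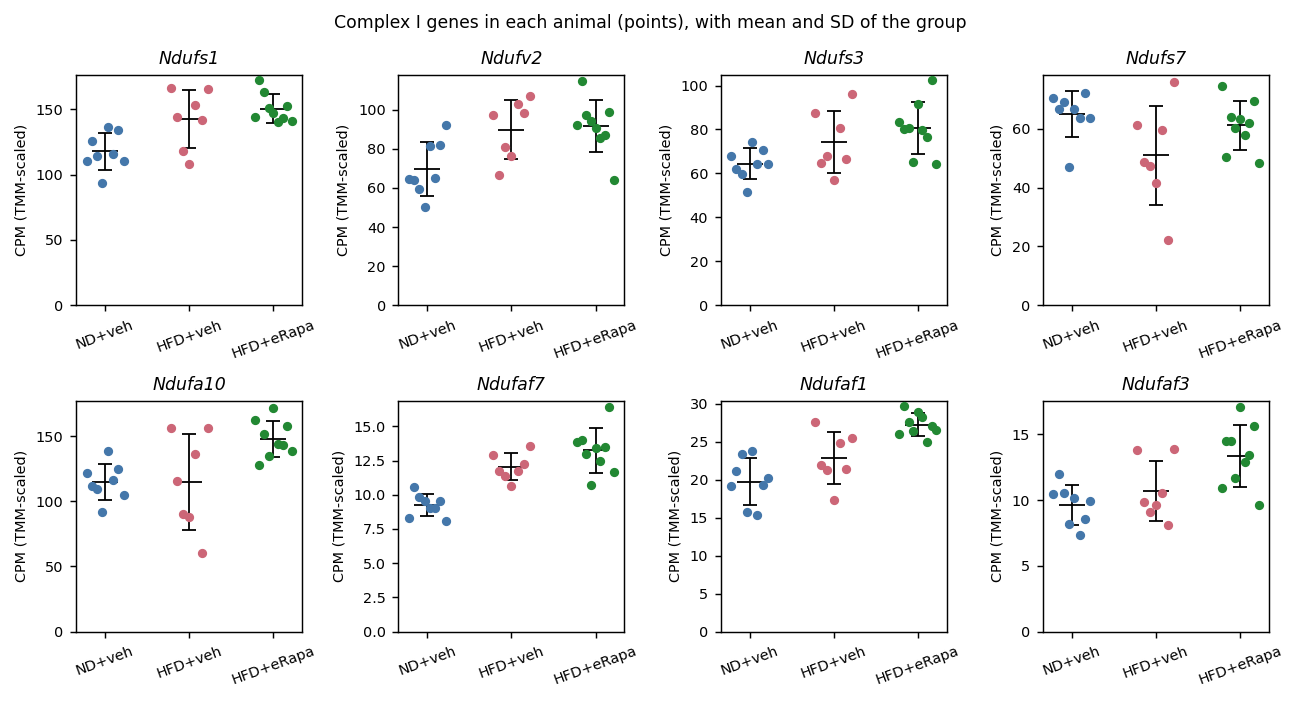
CPM of 8 complex I genes in each animal (points) of ND+veh (n = 8), HFD+veh (n = 7) and HFD+eRapa (n = 9), with the mean and SD of the group (black). Ndufaf7 lies above all ND+veh animals in both high-fat groups, Ndufs1 and Ndufaf1 do so in HFD+eRapa only, and Ndufs7 and Ndufa10 are widely spread in HFD+veh.

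Sequence before the start of transcription is shown for the called genes whose stretch is free of annotated exons of any gene. Whether called and uncalled genes differ in such sequence was not tested. RefSeq promoter windows on GRCm38.p6, 250 bases before to 50 after the start, were matched by symbol to 40 of the 45 genes. Ndufs1 was not among them. Up to 100 bases directly before the start are printed 5′ to 3′ on the strand of the gene, from chr17:66101560-66101659 (minus strand) for Ndufv2, chr17:78937067-78937134 (plus) for Ndufaf7, chr2:119662835-119662934 (minus) for Ndufaf1 and chr9:108567437-108567532 (minus) for Ndufaf3. Capitals mark matches to the motifs listed after them.
Ndufv2: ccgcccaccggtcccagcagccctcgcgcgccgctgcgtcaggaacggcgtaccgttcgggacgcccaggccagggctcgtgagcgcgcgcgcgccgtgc
Ndufaf7: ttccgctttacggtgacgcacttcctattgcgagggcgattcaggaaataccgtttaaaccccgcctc
Ndufaf1: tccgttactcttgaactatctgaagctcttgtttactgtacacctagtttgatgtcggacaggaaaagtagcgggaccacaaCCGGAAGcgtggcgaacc
Ndufaf3: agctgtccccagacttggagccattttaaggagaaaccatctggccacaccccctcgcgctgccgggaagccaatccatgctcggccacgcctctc

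The motifs searched on both strands were those of NRF1 (CGCANGCGC), of ETS factors such as GABP (CCGGAAG) and of YY1 (AAGATGGC), factors known for their sites in promoters of respiratory chain genes. The ETS letters end in AAG, the letters with which those of YY1 begin, so matches to both can share these bases. In the full windows the NRF1 letters were found in 11 of 40 complex I genes (27.5%), against 7.12% of the 27025 genes in the table. A gene counted where any of its windows matched. The 27025 genes were not limited to those that passed the filter on low counts, as all complex I genes did, and the shares were not tested. The YY1 letters were found in 8 of 40, against 3.19%, and the ETS letters in 6 (15.0%), against 9.93%. Of the 5 called genes with a window, Ndufaf1 and Ndufs3 hold the ETS letters and none holds the NRF1 or YY1 letters. The stretches of Ndufv2, Ndufaf7 and Ndufaf3 printed above hold no match, which says only that these letters are not in them.

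The second comparison, HFD+eRapa against HFD+veh, addressed the effect of eRapa in mice fed fat. No subunit was called. Ndufaf1, an early assembly factor that works with Acad9 and Ecsit on the membrane arm, was the only complex I gene of the 45 that passed, and it rose in HFD+eRapa. That is 2.22% of the 45, against 32.0% of all genes tested called in either direction and 10.9% called higher. In none of the 45 were the groups free of overlap, against 2.59% of all genes.

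Ndufaf1 (ENSMUSG00000027305.9, chromosome 2, 119655446 to 119662827, minus strand) ran from 17.3 through 21.99 to 27.5 CPM in HFD+veh and from 25.0 through 27.1 to 29.7 CPM in HFD+eRapa. The HFD+eRapa animals were packed into the upper part of the HFD+veh range and slightly beyond. The log2 fold change was 0.26 (SE 0.098, edgeR adjusted p = 0.0492). It was not called by DESeq2 (log2 fold change 0.25, adjusted p = 0.0522), without ND+veh replicate 2, 7 or 8, HFD+veh replicate 2, 3, 4 or 6 or HFD+eRapa replicate 1, 2, 3, 4, 5, 6, 8 or 9, or with the immune markers as a covariate (0.16, edgeR adjusted p = 0.450). With all alternatives its adjusted p ran from 0.0197 to 0.450.

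Of the subunits, 34 of 37 had estimates above 0, with a median log2 fold change of 0.14 beside -0.037 for all genes tested, and a range from -0.041 to 0.45. Among all genes tested 46.8% had estimates above 0. The subunit median was 0.072 without HFD+eRapa replicate 8, 0.085 without HFD+veh replicate 2 and 0.22 without HFD+veh replicate 7, and 0.050 with total counts as the only scaling. With total counts the median of all genes tested was lower too, at -0.13. Because the subunits moved together within groups, these 37 estimates are not independent of each other. At an unadjusted p under 0.05 there were 4 subunits, and DESeq2 called 1.

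Those with the smallest p were accessory subunits, which surround the catalytic core. Ndufa10, of the membrane arm on its matrix side, ran from 60.6 through 115 to 157 CPM in HFD+veh and from 128 through 144 to 172 CPM in HFD+eRapa. Its log2 fold change was 0.37 (95% interval 0.063 to 0.67, edgeR adjusted p = 0.0593). Ndufa8, a subunit facing the intermembrane space, ran from 28.8 through 46.1 to 75.9 CPM and from 47.4 through 70.0 to 124 CPM, with 0.45 (0.066 to 0.84, edgeR adjusted p = 0.0671). Ndufab1, the mitochondrial acyl carrier protein, ran from 56.8 through 68.4 to 105 CPM and from 73.7 through 94.1 to 104 CPM, with 0.27 (0.040 to 0.51, edgeR adjusted p = 0.0673). Ndufs5 had 0.32 (0.012 to 0.63, edgeR adjusted p = 0.104). In each of these genes the groups overlapped, and the lowest animal was one of HFD+veh.

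Some subunits were spread most widely in HFD+veh, the group in which the macrophage markers also varied most. Ndufa10 had a SD of 0.51 on log2 CPM in HFD+veh, against 0.18 in ND+veh and 0.14 in HFD+eRapa. The same values were 0.57, 0.20 and 0.20 for Ndufs7 and 0.46, 0.20 and 0.19 for Ndufv1. HFD+veh replicate 6, whose macrophage markers summed to 6313 CPM (without TMM scaling), was the lowest of its group in 14 of 37 subunits. It had 22.2 CPM of Ndufs7, 60.6 of Ndufa10, 28.8 of Ndufa8 and 68.5 of Ndufv1. HFD+veh replicate 7, at 961 CPM of macrophage markers, had 75.7, 156, 75.9 and 169 CPM of the same genes. HFD+veh replicate 2, the lowest of its group in 21 of 37 subunits, had 208 CPM of macrophage markers and 48.6, 115, 46.1 and 122 CPM of these genes. Of Ndufa10, HFD+veh replicates 1, 3, 4 and 5 had 157, 89.9, 87.9 and 136 CPM. Their macrophage markers summed to 173, 4225, 3453 and 3194 CPM in that order. Replicates 3, 4 and 6 thus had both the highest macrophage sums and the lowest Ndufa10 levels, while the full order of the animals was not the same in both measures. The correlation of these 2 measures within the group was not tested. Other subunits were not low in HFD+veh replicate 6, such as Ndufa9 at 140 CPM and Ndufs4 at 61.1 CPM, named after their values were seen. Of these genes only replicate 7 of the group had more, 150 and 63.4 CPM. Over all subunits the spread was alike in the 3 groups, with median SDs of 0.32, 0.34 and 0.34. The macrophage markers entered a fit only within the score of 17 immune markers, and the part of the stellate, endothelial and cholangiocyte markers was not tested. With that score as a covariate the log2 fold change of Ndufa10 was 0.18 (edgeR adjusted p = 0.527) and that of Ndufa8 0.25 (edgeR adjusted p = 0.517).

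Single libraries set the subunit count in this contrast. It was 6 without HFD+veh replicate 7, 2 without HFD+veh replicate 1 or 5 or HFD+eRapa replicate 2 or 9, and 1 without ND+veh replicate 4, all of them higher in HFD+eRapa. Without HFD+veh replicate 6 no subunit was called and the log2 fold change of Ndufa10 was 0.27 (edgeR adjusted p = 0.119). Every 95% interval again lay inside a 2-fold change, and 27 of 37 subunit intervals lay inside 1.5-fold. Among assembly factors Ndufaf5 was lowest, at -0.28 (95% interval -0.56 to 0.0032, edgeR adjusted p = 0.121).

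In the third comparison, HFD+eRapa against ND+veh, diet and drug differed together. Ndufs1, Ndufv2 and Ndufs3 rose among subunits, and Ndufaf7, Ndufaf1 and Ndufaf3 rose among assembly factors. All 3 subunits belong to the catalytic core of the matrix arm. The largest subunit estimate, 0.44, was that of a gene of the distal membrane arm that was not called. Whether core and other subunits differ was not tested. Of the 45 genes 6 (13.3%) were called, all higher, against 13.5% of all genes tested called in either direction and 6.93% called higher. The share called in either direction was thus near the background. By class these were 3 of 37 subunits (8.11%) and 3 of 8 assembly factors (37.5%). Each group enters a pair of the comparisons, so the 3 sets of fold changes share animals.

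Ndufaf7 had the smallest p. It ran from 8.11 through 9.26 to 10.6 CPM in ND+veh and from 10.7 through 13.4 to 16.4 CPM in HFD+eRapa, with no overlap and a log2 change of 0.52 (SE 0.085, edgeR adjusted p = 0.000183). Ndufaf1 ran from 15.3 through 19.8 to 23.8 CPM and from 25.0 through 27.1 to 29.7 CPM, again with no overlap, and had 0.47 (SE 0.095, edgeR adjusted p = 0.00162). Both stayed called under all 34 alternatives, with adjusted p of at most 0.00473 for Ndufaf7 and 0.0197 for Ndufaf1. Ndufaf3 (ENSMUSG00000070283.4, chromosome 9, 108565537 to 108567434, minus strand), which acts with Ndufaf4 on the Q module, ran from 7.33 through 10.05 to 12.0 CPM and from 9.64 through 13.4 to 17.1 CPM. Its groups overlapped, and its log2 fold change was 0.47 (SE 0.13, edgeR adjusted p = 0.0171). Ndufaf3 was not called on log2(FPKM + 1), where limma gave 0.30 (adjusted p = 0.0937).

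Ndufs1 ran from 93.9 through 115 to 137 CPM in ND+veh and from 140 through 147 to 173 CPM in HFD+eRapa. The lowest HFD+eRapa animal was above the highest ND+veh animal, as in Ndufaf7 and Ndufaf1. In CPM these 3 of 45 genes had no overlap, against 3.37% of all genes tested. In FPKM the groups overlapped in all 3. The lowest HFD+eRapa animals had 47.2 FPKM of Ndufs1, 19.4 of Ndufaf1 and 6.24 of Ndufaf7. The highest ND+veh animals had 49.7, 21.8 and 7.35 FPKM in that order. The log2 fold change of Ndufs1 was 0.36 (SE 0.091, edgeR adjusted p = 0.00990). Ndufs1 was not called on log2(FPKM + 1), where limma gave 0.20 (adjusted p = 0.0672), nor on log2(FPKM + 0.1) (limma adjusted p = 0.0689). Without the filter it was not called either (edgeR adjusted p = 0.0523). Ndufv2 ran from 50.4 through 64.7 to 92.1 CPM and from 64.1 through 92.1 to 115 CPM, with 0.39 (SE 0.12, edgeR adjusted p = 0.0347). Ndufs3 (ENSMUSG00000005510.9, chromosome 2, 90894634 to 90904827, minus strand) ran from 51.4 through 64.4 to 74.4 CPM and from 64.3 through 80.4 to 102 CPM, with 0.32 (SE 0.11, edgeR adjusted p = 0.0466). On log2(FPKM + 1) and log2(FPKM + 0.1) Ndufs3 was not called (limma adjusted p = 0.0752 and 0.0768). Without the filter neither Ndufs3 nor Ndufv2 was called (edgeR adjusted p = 0.124 and 0.0692). Ndufa10, next by p and not called, had 0.37 (95% interval 0.073 to 0.66, edgeR adjusted p = 0.0923), with 91.8 through 114 to 138 CPM in ND+veh against 128 through 144 to 172 CPM in HFD+eRapa.

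Estimates were above 0 in 36 of 37 subunits and in all 8 assembly factors, against 45.3% of all genes tested. The median log2 fold change was 0.28 for subunits and 0.37 for assembly factors, beside -0.034 for all genes. Medians by module were 0.33 in the N module (2 called), 0.28 in the Q module (1 called), 0.26 in the proximal membrane arm and 0.18 in the distal arm, with none called in either arm. Ndufs7 was the only subunit below 0, at -0.087 (95% interval -0.41 to 0.23). The intervals of all 45 genes lay inside a 2-fold change, but only 19 of 37 subunit intervals and 3 of 8 assembly factor intervals lay inside 1.5-fold. The stellate markers also differed between these groups, with 4 of 8 called lower in HFD+eRapa, while 0 of 12 macrophage markers were called by edgeR and 0 had an unadjusted p under 0.05. The part of the stellate markers in the complex I values was not tested. With the immune markers as a covariate 4 subunits and 3 assembly factors were called.

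Calls for subunits moved with single animals in this contrast too. Only 1 subunit was called without ND+veh replicate 1, 2, 3, 4 or 6, HFD+veh replicate 3 or HFD+eRapa replicate 2, 3 or 8, and 2 without HFD+veh replicate 5 or HFD+eRapa replicate 1, 4, 5, 6 or 7. Assembly factor counts were 3 in every case but 1, with 4 called without HFD+eRapa replicate 9.

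**Figure D5:**
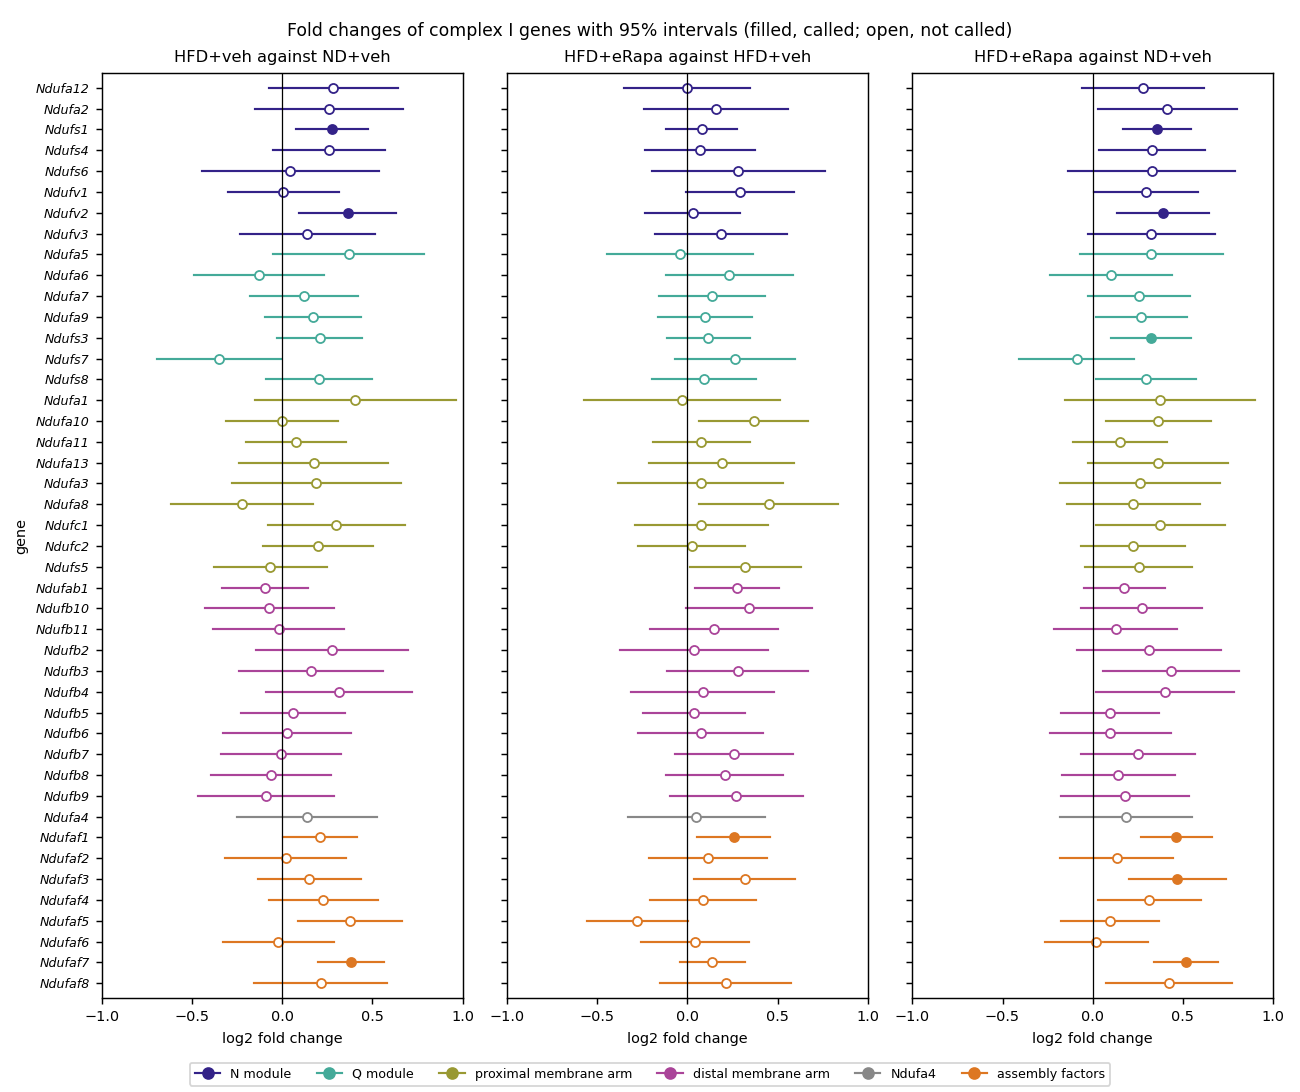
Log2 fold change (points) and 95% interval (lines) of 44 of the genes in the 3 contrasts, from the edgeR fit, coloured by module. Filled points passed the adjusted threshold of 0.05. Estimates sit mostly right of 0 in HFD+eRapa against ND+veh, with 3 subunits and 3 assembly factors filled, and no interval reaches a 2-fold change.

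Other genes needed for complex I were read from lists. The 7 subunit genes of mitochondrial DNA had median log2 fold changes of 0.46 in HFD+veh against ND+veh, 0.25 in HFD+eRapa against HFD+veh and 0.72 in HFD+eRapa against ND+veh. Of these 7, 2, 1 and 4 were called higher in that order and none lower, and in HFD+eRapa against HFD+veh mt-Nd3 and mt-Nd4l had estimates below 0, at -0.19 and -0.037. Their difference from the nuclear subunits was not tested. mt-Nd4, a proton-pumping subunit, averaged 3935 ± 1406 CPM (SD) over ND+veh, 6240 ± 1723 over HFD+veh and 7403 ± 1912 over HFD+eRapa animals, and was called in the first contrast (log2 fold change 0.66, edgeR adjusted p = 0.0247) and in the third (0.91, 0.00310). mt-Nd4l was called in the first contrast with 0.96 (edgeR adjusted p = 0.0167), but at a low level. It averaged 3.41 ± 1.21 CPM (SD) in ND+veh and 6.62 ± 2.10 in HFD+veh. mt-Nd3 was as low, at 2.91 ± 1.02 and 4.51 ± 1.89 CPM, and both genes enter the medians above. mt-Nd6 was called in the second (0.42, edgeR adjusted p = 0.0298) and in the third (0.72, edgeR adjusted p = 0.000949), and mt-Nd5 in the third (0.79, edgeR adjusted p = 0.00201). The share of all counts from mitochondrial DNA averaged 5.23% in ND+veh, 7.26% in HFD+veh and 8.09% in HFD+eRapa. HFD+eRapa differed from ND+veh (two-sided exact permutation p = 0.00107, adjusted over 6 tests 0.00642). By the same permutation test HFD+veh against ND+veh (p = 0.0208, adjusted 0.0625) and HFD+eRapa against HFD+veh (p = 0.319, adjusted 0.382) did not pass after adjustment.

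Of 13 assembly factors named outside the Ndufaf series, 11 passed the filter. In HFD+veh against ND+veh, Nubpl, which helps deliver iron-sulfur clusters to complex I, rose by 0.48 (edgeR adjusted p = 0.00689), and Acad9, of the same complex as Ndufaf1, rose by 0.27 (edgeR adjusted p = 0.0177). Timmdc1, a membrane arm factor, fell by 0.51 on the log2 scale (edgeR adjusted p = 0.0218). With eRapa on the high-fat diet Timmdc1 rose by 0.53 (edgeR adjusted p = 0.0103), Ecsit, also a partner of Ndufaf1, by 0.54 (edgeR adjusted p = 0.0145) and Foxred1 by 0.25 (edgeR adjusted p = 0.0401). Timmdc1 had 36.9 ± 6.52 CPM in ND+veh, 26.0 ± 6.89 in HFD+veh and 37.6 ± 6.74 in HFD+eRapa. In HFD+eRapa against ND+veh the called genes were Nubpl (0.74, edgeR adjusted p = 7.89e-05), Foxred1 (0.43, 0.00170) and Acad9 (0.34, 0.00291), all higher.

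Of 9 regulators of mitochondrial biogenesis, few were called. Yy1 fell by 0.33 on the log2 scale in HFD+veh against ND+veh (edgeR adjusted p = 0.0280). The coactivator Ppargc1b rose in that contrast by 0.67 (edgeR adjusted p = 0.0389), and is named although the naming rule did not reach it. Ppargc1a, the coactivator known for driving mitochondrial biogenesis, fell in HFD+eRapa against HFD+veh by 0.89 on the log2 scale (edgeR adjusted p = 0.00525), from 10.5 ± 4.69 CPM (SD, n = 7) to 5.69 ± 1.02 CPM (SD, n = 9). Against ND+veh, at 9.80 ± 3.14 CPM (SD, n = 8), it was lower in HFD+eRapa as well (-0.78, edgeR adjusted p = 0.0176), a value beyond the naming rule, and no other regulator was called in these latter contrasts. Among 38 nuclear genes of complexes II to V, 0, 3 and 4 were called higher in the 3 contrasts and none lower, with medians of 0.13, 0.15 and 0.28, beside 0.14, 0.14 and 0.28 for the complex I subunits. Among 77 mitochondrial ribosomal protein genes, 4 were called higher and 4 lower with the diet, 17 higher with eRapa on the diet and 8 higher in HFD+eRapa against ND+veh.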

How the data were processed

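RNA-seq libraries of 24 animals were grouped by their labels, which give 1 batch. The authors aligned reads with STAR to mm10 (Gencode M23). The deposited counts are unnormalized and come from HTSeq 0.11.2, run by the authors. Whether counting used strand is not given in the sources used here, and exons of 18 of the 45 genes share bases with another gene. The deposited FPKM values were made by the authors with Cufflinks. Positions are from Gencode M21 (GRCm38, the same assembly as mm10).

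All genes were fitted together with edgeR 4.0.16 in R 4.3.3 (filterByExpr, TMM, glmQLFit robust, glmQLFTest) and adjusted by Benjamini-Hochberg. Called means adjusted p under 0.05. Log2 CPM used a prior count of 2. SE is the absolute log2 fold change over the square root of F, and intervals are 95%. Of the 45 genes, 1 enters the counts and medians but is not reported here by itself. The complex I genes and all lists were chosen with earlier results of these data known. Named were, per contrast, called subunits (up to 8 each way, filled by smallest p to 4), called assembly factors (the 2 with the smallest p where none was called), core subunits and up to 6 called genes of the other lists. Alternatives were DESeq2 1.42.0, limma 3.58.1 on log2(FPKM + 1) or log2(FPKM + 0.1), other scalings, no filter, the 2 groups alone, the replicate number as a block, a score of 17 immune markers and leaving out libraries. The smallest chi-square per degree of freedom within a group was 12.7, so no library counted as a duplicate. Fits were tested on simulated data.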

Additional observations from a re-analysis of the deposited data

Results flagged for a closer look

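Within groups, 54 sets of values were screened with Dixon's test for a sample far from the others, of which chance gives about 1 in 20. Only total counts, scaling factors, mitochondrial shares, class means and the named genes were screened. ND+veh replicate 4 stood below its group in log2 CPM of Ndufa8 (5.42, next 5.85) and Ndufs7 (5.55, next 5.99), and had the highest TMM factor (1.30, next 1.08). HFD+eRapa replicate 9 stood low in Ndufv2 (6.00, next 6.42). Total counts of HFD+veh replicate 3 were the lowest of that group (19.8 M, next 21.3 M). ND+veh replicate 8 had the highest share of mitochondrial counts of its group (8.15%, next 5.19%).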

How the results depend on the processing

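No class median changed sign, nor did the genes named by the rule on called genes and smallest p in their own contrast. Other pairs of gene and contrast were not all computed, and in HFD+veh against ND+veh the estimates of Ndufv1 and Ndufa10, near 0, were 0.077 and 0.079 without HFD+veh replicate 6 but -0.095 and -0.093 without HFD+veh replicate 7. With 1 library left out the subunit median ran from 0.031 to 0.20, from 0.072 to 0.22 and from 0.20 to 0.32 in the 3 contrasts in the order of the report, and that of assembly factors from 0.13 to 0.24, from 0.071 to 0.17 and from 0.29 to 0.41. Under other alternatives the ranges were 0.047 to 0.20, 0.045 to 0.22 and 0.16 to 0.34 for subunits and 0.15 to 0.30, 0.034 to 0.18 and 0.28 to 0.41 for assembly factors. With 1 library left out the subunit count ran from 0 to 2 in HFD+veh against ND+veh, from 0 to 6 in HFD+eRapa against HFD+veh and from 1 to 3 in HFD+eRapa against ND+veh, and the assembly factor count from 1 to 2, from 0 to 2 and from 3 to 4. In HFD+veh against ND+veh no subunit was called without the filter, with the 2 groups alone, with the immune score or without both ND+veh replicate 4 and HFD+veh replicate 6 (an alternative chosen after seeing the data). Assembly factors called were 2 with DESeq2 or its size factors and 0 without the filter. In HFD+eRapa against HFD+veh, 1 subunit was called by DESeq2, with total counts and on either FPKM scale, while no assembly factor was called by DESeq2, with its size factors, without the filter, with the immune score, on either FPKM scale or without both libraries. With total counts the 1 assembly factor called was Ndufaf5, lower at -0.36 (edgeR adjusted p = 0.0494), in place of Ndufaf1. In HFD+eRapa against ND+veh, subunits called were 0 without the filter, 6 with the 2 groups alone, and 1 on either FPKM scale or without both libraries. Ndufs7 was called lower in HFD+veh on log2(FPKM + 1), at -0.44 (limma adjusted p = 0.0462). Without the filter 30483 genes were tested instead of 13847. The cause of the other shifts was not tested.

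With the replicate number as a block, 4 subunits and 0 assembly factors were called in HFD+eRapa against HFD+veh and 9 subunits in HFD+eRapa against ND+veh. Same-numbered libraries had correlations from -0.66 to 0.73. Their mean was 0.32 between ND+veh and HFD+veh, -0.24 between HFD+veh and HFD+eRapa and -0.20 between ND+veh and HFD+eRapa. Libraries of different numbers were not compared, so these values cannot decide whether the numbers pair the animals. Over all genes the share of calls that were higher was 61.9%, 34.0% and 51.4% in the 3 contrasts. It was 62.2%, 23.2% and 38.1% with total counts, and 49.5%, 26.4% and 35.5% on log2(FPKM + 0.1). On log2(FPKM + 1) it was 35.9% in the last of these. Counts over all genes moved by over 1.5 times from 3584 in HFD+veh against ND+veh to 1221 with the immune score, 2333 with the 2 groups alone, 2340 on log2(FPKM + 0.1) and 2300 without both libraries, and from 4432 in HFD+eRapa against HFD+veh to 970 with the immune score and 2532 with the block. Among the named genes, 128 of 170 values under alternatives other than leaving out 1 library stayed on their side of the threshold.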
